A study of Xenopus laevis with 12 samples.

Results

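The response to a morpholino against the microRNA miR-196a was compared between stages 14 and 17 of the Nieuwkoop and Faber series in tissue labelled neural crest from Xenopus laevis, a frog. The quantity of interest is a stage difference: the log2 fold change between morpholino arms at stage 17 minus the log2 fold change between arms at stage 14. Its members are the genes listed at both stages with a mean normalised count of at least 10 in each. This rule kept 15157 of the 17510 genes found in both of the authors' deposited tables, which between them list 19252 genes. In the authors' deposited tables the genes just inside the limit included emx1.L, with means of 10.02 at stage 14 and 21.5 at stage 17, and nptxr.L, with 10.02 and 31.3. Just outside lay MGC145260.S, with means of 9.9956 and 66.5, and dgke.L, with 15.6 and 9.99094, in the same authors' deposited tables.

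Per the labels, all embryos were wild type and received 60 ng of oligonucleotide at the 4-cell stage, and total RNA was taken from neural crest tissue. The 12 samples form 4 groups of 3: embryos given the miR-196a morpholino and raised to stage 14, embryos given a mismatch morpholino and raised to stage 14, and the same pair of treatments at stage 17. A morpholino is an antisense oligonucleotide analogue, and the mismatch version carries altered bases and serves as the control. Injection was into a single dorsal blastomere, per the design text, so the tissue can hold cells without the oligonucleotide. The series asks how this microRNA acts on neural crest and on immature neural programmes, and having 2 stages allows the question of whether the response changes with time.

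MicroRNAs are short RNAs that guide a silencing complex to partly complementary messenger RNAs and lower their stability or translation. The miR-196 genes lie inside the Hox clusters, and Hox messenger RNAs are among their known targets in vertebrates. The neural crest is a migratory population that forms at the border between neural plate and epidermis. Border genes such as the Zic, Msx and Pax3 factors come on first, followed by crest specifiers such as the Snail and SoxE factors. In the same period the neural plate proper passes from an immature, partly pluripotency-like state to regional identities from forebrain to spinal cord.

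The authors' deposited tables give, per gene and stage, the mean normalised count and the log2 fold change between arms, the latter with a standard error (SE), and no value per sample. The arm used as numerator is not named in them. A positive value therefore means a higher level in what is called here the numerator arm, a negative value a higher level in the denominator arm, and which arm is which is not given in the sources used here. Levels of the arms were computed from the mean and the fold change on the assumption of equal arm sizes. Each stage was normalised on its own, and every level set side by side across stages carries that limit. The batch label repeats the stage, so stage and batch cannot be told apart. Arms at or below 3 normalised counts were treated as at a floor, and folds against them are given as lower bounds.

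Markers of the labelled tissue were present. The 23 neural crest specifier genes had summed levels of 20971 normalised counts in the numerator arm and 60018 in the denominator arm at stage 14, and of 68961 and 117145 at stage 17. Epidermal markers were abundant too, with sums of 76825 and 254778 at stage 14 and of 121429 and 263094 at stage 17, over 40 genes listed at either stage. Muscle, endoderm, and blood and myeloid markers were low, with summed levels between 7.13 and 113 normalised counts in any arm. Cement gland markers were higher, with sums of 1431 in the numerator arm and 6858 in the denominator arm at stage 14. At stage 17 the cement gland sums were 1879 and 3167. Notochord and organizer markers had sums of at most 672 in any arm. In tissue of mixed cells, a smaller number of cells of a type and less RNA per cell cannot be told apart.

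Of the 15157 genes, 242 (1.6%) had a stage difference with an adjusted p-value under 0.05, by a two-sided normal test that used the SEs of the authors' deposited tables and the Benjamini-Hochberg adjustment. The change was more positive at stage 17 in 208 genes (1.37%) and more negative in 34 (0.224%). Before adjustment 1332 genes (8.79%) had a p-value under 0.05. Among all 17510 genes in both tables, 245 (1.4%) passed after adjustment. The median stage difference over all members was 0.11 on the log2 scale, and 8575 of them (56.6%) lay above 0. Over all 17510 genes the median was 0.12, and with every difference taken relative to it, 214 members passed, 172 of them more positive and 42 more negative. The 3 samples per arm limit the test: with a t reference of 8 degrees of freedom in place of the normal, 0 genes passed after adjustment, 841 had an unadjusted p-value under 0.05 and the smallest adjusted p was 0.351.

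Called genes were better measured than most. Their median mean normalised count was 648 at stage 14 and 439 at stage 17, against 252 and 258 over all members, from the authors' deposited tables. A gene with the median SE of a stage difference, 0.65, needed an absolute difference of 2.19 to pass, so a smaller difference of such a gene could not be detected. As fitted, the differences of the 208 more positive genes ranged from 1.35 to 20.17 with a median of 2.75. The largest was that of nkx6-2.S, with a fitted log2 fold change of 20.8 at stage 17. This gene passed the authors' threshold at neither stage, with a missing adjusted p-value counted as not passing. In 40 of the 208 genes an arm was at the floor, and with those arms set to 3 the median was 2.67. The 34 more negative genes had a median of -3.24, or -2.77 with the 4 genes at the floor set to it. Across members, the log2 fold changes of the stages had a Spearman correlation of 0.486, a description over genes that share libraries.

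**Figure D1:**
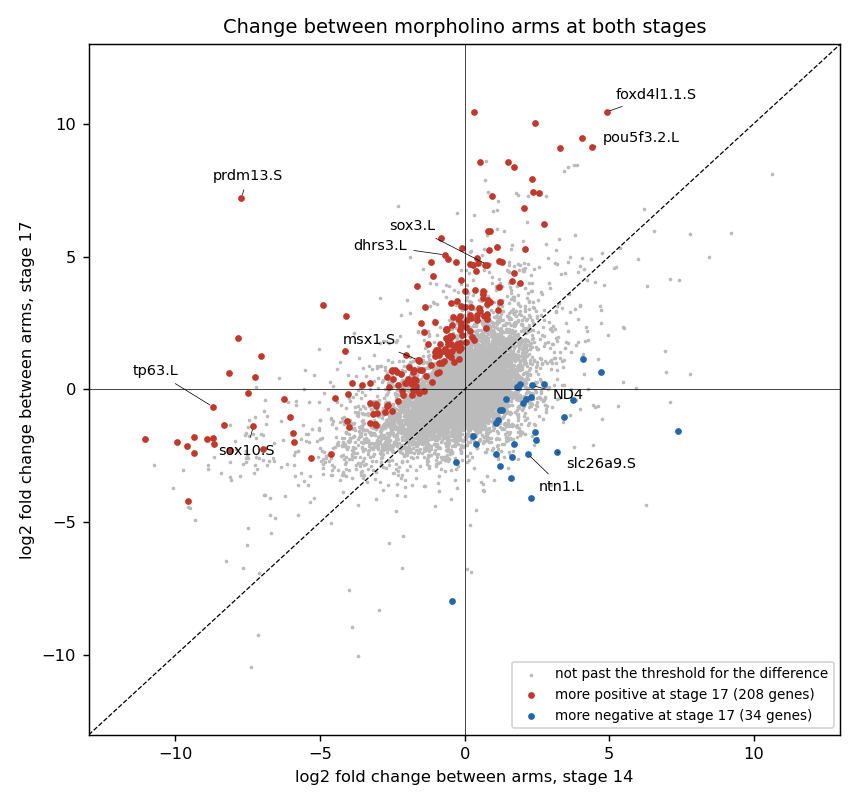
Each point is a gene, with its log2 fold change between arms at stage 14 on the x axis and at stage 17 on the y axis, as fitted, also where an arm was at the floor. The 208 genes more positive at stage 17 lie above the dashed line of equal change and the 34 more negative genes below it; 3 called genes lie outside the axes.

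The 208 more positive genes fell into 3 main forms. In 96 the arms differed past the authors' threshold at stage 17 only, with a positive sign, in 82 the change was negative past it at stage 14 and less negative, or positive without passing, at stage 17, and in 19 a positive change at stage 14 was stronger at stage 17. Of the 82 genes, 65 did not pass at stage 17 and 17 were still negative past the threshold. The remaining 7 had opposite signs past the threshold at both stages, and 4 passed at neither. A gene without an authors' adjusted p-value at a stage was counted as not passing there. Of the 208 genes, 2 had no authors' p-value at a stage. For comparison, 1451 members (9.6%) had an adjusted p-value under 0.05 at stage 14 in the authors' deposited table, 507 positive (3.35%) and 944 negative (6.25%). The authors' deposited table for stage 17 gave 1579 members (10.4%), 832 positive (5.5%) and 747 negative (4.94%).

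These forms differed in which arm stood apart between stages. Among the 96 genes positive at stage 17 only, the median log2 ratio of stage 17 to stage 14 level, with floored arms at 3, was -0.20 in the numerator arm and -3.00 in the denominator arm. Among the 82 genes negative at stage 14 it was 2.18 in the numerator arm and -0.40 in the denominator arm. Among the 19 with a stronger positive change the medians were -1.11 and -4.50. Over all members they were -0.02 and -0.05. The first and the third form thus had their larger shift in the denominator arm, and the second form in the numerator arm. Both levels were computed from the mean and the fold change, and the forms were defined by the fold changes. At an unchanged mean the form itself sets which arm has the larger shift, so this order is not a separate result. These shifts compare levels across separately normalised tables and were not tested.

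All called genes of the immature neural ectoderm and of blastula pluripotency had the first or the third form. Of the 16 SoxB1 and immature neural genes, 4 had a more positive change at stage 17 and 0 a more negative one, and 5 and 0 passed unadjusted by the normal test. Their median log2 fold change was 1.32 at stage 14 and 3.01 at stage 17, and 6 and then 11 of them were positive and past the threshold, by the authors' deposited tables. Of the 22 pluripotency genes, 8 were more positive and 0 more negative (10 and 0 unadjusted), around a median difference of 2.25, or 1.46 with floored arms at 3. Over all members that median was 0.11, 1.37% were more positive and 0.224% more negative, and 8.79% passed unadjusted in either direction. The counts of 0 more negative genes in both lists are near that share.

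The SoxB1 factors sox2 and sox3 keep neural progenitors undifferentiated. For sox3.L the arms stood at 3088 and 1802 normalised counts (numerator, denominator) at stage 14, and at 2108 and 81.2 at stage 17. The denominator arm was thus far lower at stage 17, and the numerator arm somewhat lower. The log2 fold change of sox3.L was 0.78 (SE 0.40) and 4.70 (SE 0.36) in the authors' deposited tables, a difference of 3.92 (SE 0.54, adjusted p = 2.19e-09 by the normal test). Its homeolog sox3.S, the copy on the short chromosome of the allotetraploid genome, already differed at stage 14, with 9723 against 3101, and stood at 5273 against 315 at stage 17. Its stage difference was 2.42 (SE 0.48, adjusted p = 2.31e-04 by the normal test). For sox2.L the levels were 3924 and 1817 at stage 14 and 2571 and 62.8 at stage 17, a fold of 2.16 and then of 40.9. The stage difference of sox2.L was 4.24 (SE 0.96, adjusted p = 0.00222 by the normal test).

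The Pou5f3 factors are the frog relatives of mammalian Oct4, and the Ventx2 homeobox factors act in ventral patterning and hold cells in an uncommitted state. Both copies of pou5f3.1 passed. For pou5f3.1.S the arms held 6346 and 4055 normalised counts at stage 14 and 2426 and 225 at stage 17, a stage difference of 2.78 (SE 0.51, adjusted p = 2.96e-05 by the normal test). For pou5f3.1.L they held 12281 and 8588, then 3941 and 503, a stage difference of 2.45 (SE 0.49, adjusted p = 2.54e-04 by the normal test). Both arms were lower at stage 17 here, the denominator arm more so.

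The 4 copies of ventx2.1 and ventx2.2 followed the same order. For ventx2.2.S the numerator arm was at 1540 and 1050 normalised counts and the denominator arm at 945 and 40.7, and the stage difference was 3.99 (SE 0.63, adjusted p = 4.10e-07 by the normal test). For ventx2.1.S the numerator arm was at 969 and 866 and the denominator arm at 735 and 39.2, with a stage difference of 4.06 (SE 0.65, adjusted p = 5.95e-07 by the normal test). The long-chromosome copies ventx2.2.L and ventx2.1.L had stage differences of 2.43 (SE 0.57, adjusted p = 0.00364) and 2.08 (SE 0.52, adjusted p = 0.0102) by the normal test. At stage 14 none of these 4 copies passed the authors' threshold, and at stage 17 all 4 did, with log2 fold changes from 2.75 to 4.69 in the authors' deposited tables.

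Neural plate border genes held the largest number of called genes of any list. Of 30 members, 13 had a more positive change at stage 17, against 1.37% of all members. A more negative one was seen in 0, which is near the 0.224% of all members. Unadjusted, 23 and 0 passed the normal test, against 8.79% of all members in either direction. Above 0 lay 29 of the 30, against 56.6% of all members. The list moved from a median log2 fold change of -0.50 to 1.25, and from 8 negative and 0 positive genes past the threshold to 0 and 16, by the authors' deposited tables. The Zic, Msx and Pax3 genes made up 12 of the 13.

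Msx1 and msx2, homeobox factors that act downstream of BMP at the border, carried the change of sign. For msx1.S the numerator arm held 1618 and the denominator arm 4908 normalised counts at stage 14, and at stage 17 they held 2256 and 1050. The order of the arms was thus exchanged. The log2 fold change of msx1.S was -1.60 (SE 0.31, adjusted p = 1.54e-05) and 1.103 (SE 0.30, adjusted p = 0.00599), as the authors' deposited tables give it, and the stage difference 2.705 (SE 0.43, adjusted p = 7.17e-07 by the normal test). For msx2.L the levels were 1457 and 4306, then 2120 and 1022, with a stage difference of 2.62 (SE 0.42, adjusted p = 5.95e-07 by the normal test). The other copies, msx1.L and msx2.S, also had more positive changes, by 1.58 (SE 0.40, adjusted p = 0.0106) and 1.83 (SE 0.53, adjusted p = 0.0437) by the normal test. Neither of them passed the authors' threshold at stage 17, where their log2 fold changes were 0.63 and 0.51 in the authors' deposited table. For msx2.S the call was lost when differences were taken relative to the median of all genes tested.

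Zic factors, zinc-finger regulators of the neural plate and its border, differed in form from the Msx genes. For zic2.S the arms were close at stage 14, at 4211 and 4963 normalised counts, and apart at stage 17, at 3329 and 527. The stage difference was 2.90 (SE 0.47, adjusted p = 1.18e-06 by the normal test). Its homeolog zic2.L had levels of 3857 and 4034, then 3354 and 1341, and a difference of 1.39 with a 95% interval from 0.50 to 2.27 that did not pass (adjusted p = 0.107, normal test). For zic1.S, chosen after its values were seen, the levels were 8486 and 5505, then 5209 and 395. The denominator arm thus had the larger shift between stages in these Zic copies and also in msx1.S and msx2.L. The numerator arm was lower at stage 17 in these Zic copies and higher in msx1.S and msx2.L.

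**Figure D2:**
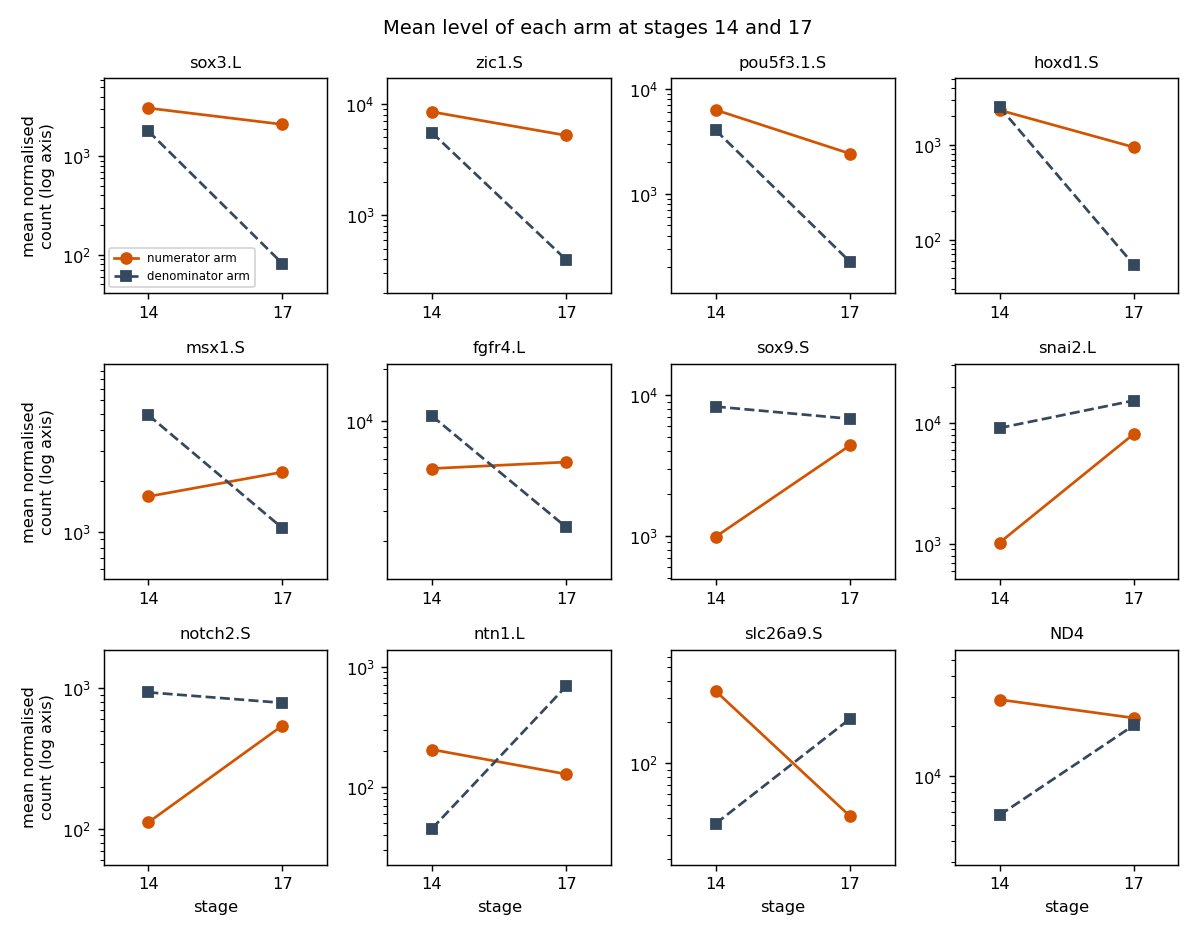
Each panel shows the mean level of a gene in normalised counts on a log axis at stages 14 and 17, for the numerator arm (circles) and the denominator arm (squares), computed from the authors' deposited tables; zic1.S and snai2.L were chosen after their values were seen. In sox3.L the arms part at stage 17 (2108 against 81.2), in msx1.S they cross, and in sox9.S the numerator arm is nearer to the denominator arm at stage 17 (4393 against 6790) than at stage 14 (989 against 8284).

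Several genes of the midbrain and hindbrain differed between the arms at stage 17 and not past the threshold at stage 14. Of 29 midbrain and hindbrain genes, 8 were more positive and 0 more negative (14 and 1 unadjusted, normal test), with a median difference of 1.48. Among all members 1.37% were more positive and 0.224% more negative, and the count of 0 is near the latter. By the authors' deposited tables the list had 0 positive and 3 negative genes past the threshold at stage 14, against 14 positive and 0 negative at stage 17. The called genes did not all share a form. The largest fitted difference, 9.19, was that of pax8.S, chosen after its values were seen. It had the second form, with fitted log2 fold changes of -11.06 at stage 14 and -1.87, not past the threshold, at stage 17. The hindbrain homeobox factor meis3 was called in both copies. For meis3.L the arms were at 4591 and 6119 normalised counts at stage 14 and at 4359 and 660 at stage 17, a stage difference of 3.14 (SE 0.44, adjusted p = 4.57e-09 by the normal test). For meis3.S they were at 2606 and 4051, then 2765 and 720, a difference of 2.58 (SE 0.40, adjusted p = 2.14e-07 by the normal test). The numerator arm of meis3 was nearly the same at both stages in both copies.

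Dhrs3 reduces retinaldehyde and so limits retinoic acid, and cyp26a1 degrades it. For dhrs3.L the numerator arm was at 806 and 769 normalised counts and the denominator arm at 1278 and 23.1. That is a fold of 33.3 between arms at stage 17, and the stage difference was 5.72 (SE 0.74, adjusted p = 9.08e-11 by the normal test). The copy dhrs3.S passed with 2.56 (SE 0.68, adjusted p = 0.0178 by the normal test). For cyp26a1.S the arms were at 2658 and 1719, then 1592 and 133, with a stage difference of 2.95 (SE 0.61, adjusted p = 4.55e-04 by the normal test). Its homeolog cyp26a1.L did not pass: its difference was 0.66 with a 95% interval from -0.44 to 1.75, and its arms stood at 1880 and 837, then 1643 and 464.

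All 20 Hox genes among the members had a stage difference above 0, where 56.6% of all members did. Of these, 6 passed in the positive direction and 0 in the negative (12 and 0 unadjusted, normal test), around a median of 3.06. Among all members 1.37% and 0.224% did so, and the count of 0 is near the latter. A further 14 Hox genes in both tables had means under 10 at a stage and were not members. Hox factors set position along the body axis. For hoxd1.S the arms were alike at stage 14, at 2325 and 2507 normalised counts, and stood at 946 and 54.6 at stage 17, a stage difference of 4.22 (SE 0.65, adjusted p = 2.14e-07 by the normal test). The homeolog hoxd1.L gave 4.50 (SE 1.21, adjusted p = 0.0219 by the normal test), from 2807 and 2067 to 1121 and 36.5.

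The Hox genes reached a more positive change by more than one route. For hoxb1.S the numerator arm was at 931 and the denominator arm at 3569 normalised counts at stage 14, and at 1630 and 908 at stage 17. A negative change at stage 14 (log2 fold change -1.94, SE 0.33, adjusted p = 5.37e-07) was followed by one of 0.84 (SE 0.36) that did not pass at stage 17, in the authors' deposited tables. Its stage difference was 2.78 (SE 0.49, adjusted p = 1.06e-05 by the normal test), and that of hoxb1.L was 4.26 with a 95% interval from 0.84 to 7.69 (adjusted p = 0.346, normal test). For hoxb4.S the levels were low, at 76.3 and 164, then 97.3 and 5.03, and the difference was 5.38 (SE 1.26, adjusted p = 0.00376 by the normal test).

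Of 22 forebrain and eye field genes listed at both stages, 14 were members. None of the 14 passed, against 1.6% of all members. By the normal test 0 had an unadjusted p-value under 0.05, against 8.79%. In a list of this size both counts are near the shares of all members. Of the 14, 3 lay above 0, against 56.6% of all members. The median log2 fold change of the list was 1.88 at the earlier and 1.83 at the later stage. Both authors' deposited tables had 5 positive genes of the list past the threshold. The eye regulator pax6.L stood at 1101 and 233 normalised counts at stage 14 and at 403 and 87.6 at stage 17. Both arms were lower at the later stage by a like factor, and the fold between them was 4.72 and 4.60. Its stage difference was -0.04 with a 95% interval from -1.60 to 1.52. For the head regulator otx2.L the folds were 3.59 and 3.36 and the interval of the difference ran from -1.57 to 1.37, so differences of the size seen in sox3 or meis3 lay outside both intervals. These genes were chosen after their values were seen. For the less abundant members the intervals were wider, up to -6.01 to 4.67 for nr2e1.S. No test compared this list with the midbrain and hindbrain list.

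**Figure D3:**
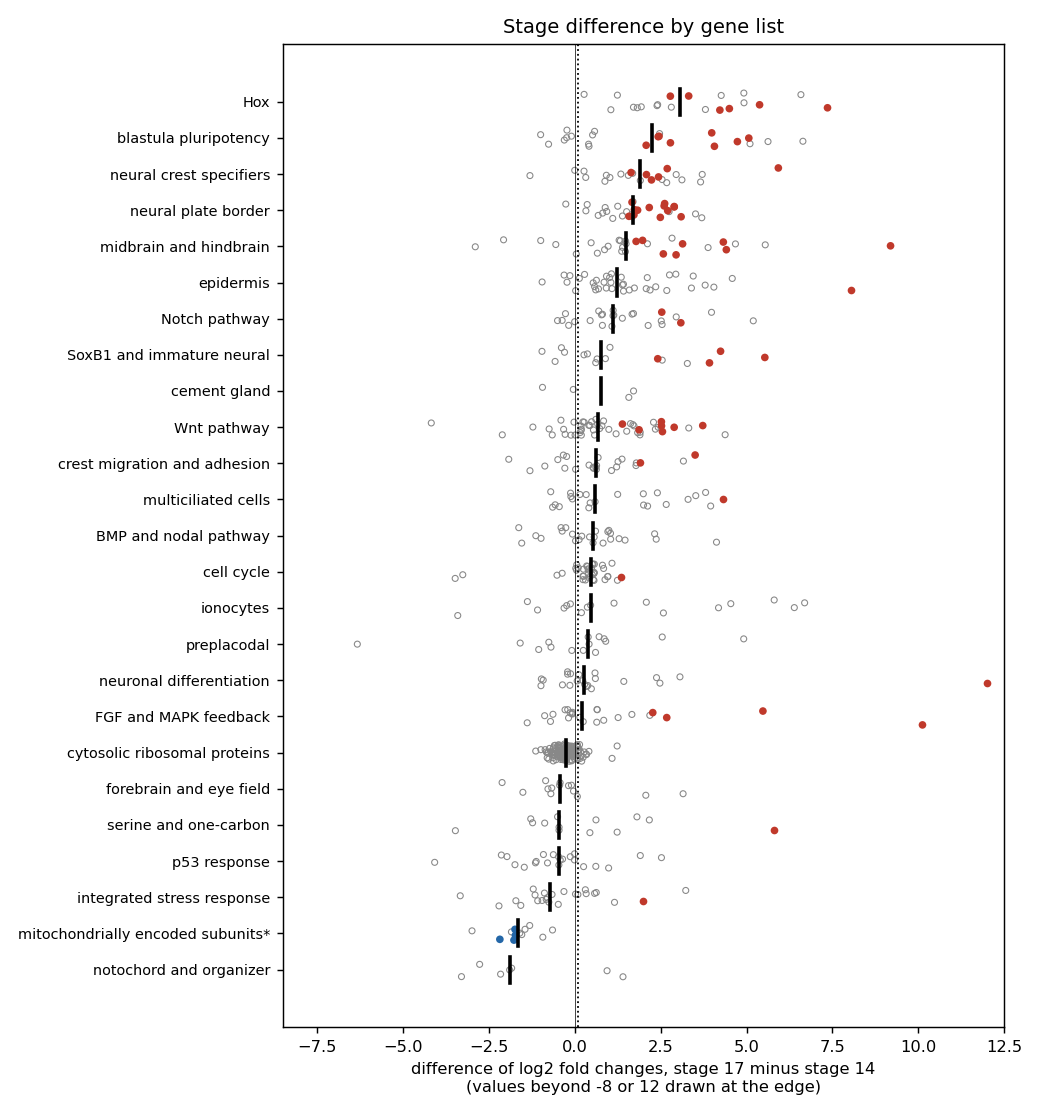
Each point is a list member with its stage difference in log2 units on the x axis, grouped by gene list on the y axis; filled points passed the test (red more positive, blue more negative at stage 17), thick bars are list medians, the dotted line is the member median of 0.11, and the starred list was added after its values were seen. All 20 Hox genes lie right of 0, the forebrain and eye field list is centred at -0.43 with no filled point, and the only blue points are mitochondrially encoded genes.

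Across signalling pathways, the called genes had a more positive change at stage 17 in each case, as did 208 of all 242 called genes. Over all members 1.37% were more positive and 0.224% more negative, and 8.79% passed unadjusted in either direction. The counts of 0 more negative genes in these pathways are near the 0.224%. In the FGF and MAPK feedback list 4 of 24 genes were more positive and 0 more negative (7 and 0 unadjusted, normal test), while its median of 0.20 was close to that of all members. The ligand fgf3 was called in both copies. For fgf3.L the arms were at 128 and 190 normalised counts at stage 14 and at 138.4 and 4.61 at stage 17, a stage difference of 5.48 (SE 1.22, adjusted p = 0.00194 by the normal test). For fgf3.S they were at 351 and 278 at stage 14, and at stage 17 the numerator arm was at 283, at least 94.4-fold above a denominator arm at the floor. Its fitted stage difference was 10.12 (SE 1.88, adjusted p = 4.52e-05 by the normal test), and with that arm at 3 it was 6.22. The receptor fgfr4.L exchanged the order of its arms, from 5279 and 10655 to 5756 and 2408, with a stage difference of 2.27 (SE 0.36, adjusted p = 5.30e-07 by the normal test). Its homeolog fgfr4.S had 1.26 with a 95% interval from 0.50 to 2.02 and did not pass (adjusted p = 0.0704, normal test).

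In the Wnt pathway 7 of 49 genes were more positive and 0 more negative (12 and 1 unadjusted, normal test), with a median difference of 0.67. The shares of all members were 1.37% and 0.224%, with 8.79% unadjusted in either direction, and the count of 0 is near the 0.224%. At stage 14 the authors' deposited table had 2 positive and 1 negative Wnt genes past the threshold, against 3.35% and 6.25% of all members. At stage 17 it had 13 and 0, against 5.5% and 4.94%. For the receptor fzd10.S the arms were at 1535 and 2359 normalised counts, then 1087 and 225, with a stage difference of 2.89 (SE 0.54, adjusted p = 4.52e-05 by the normal test). The feedback inhibitor axin2, a common readout of the pathway, was called in both copies, with 1.87 (SE 0.47, adjusted p = 0.00902) for axin2.L and 1.39 (SE 0.37, adjusted p = 0.0207) for axin2.S by the normal test. For axin2.L the arms were at 5937 and 8841, then 5483 and 2232. The call of axin2.S was lost relative to the median of all genes tested. The Wnt-inactivating enzyme notum.S went from 858 and 934 to 1011 and 191, a difference of 2.52 (SE 0.60, adjusted p = 0.00488 by the normal test). Its homeolog notum.L had 1.83 with a 95% interval from -0.31 to 3.98, and the homeolog fzd10.L had 1.69 with one from 0.69 to 2.69, and neither passed.

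In the Notch list 2 of 25 genes were more positive and 0 more negative (10 and 0 unadjusted, normal test), with a median of 1.12. The shares of all members were 1.37% and 0.224%, with 8.79% unadjusted in either direction, and the count of 0 is near the 0.224%. The 2 called genes took different forms. The repressor hes1.L, a target of Notch, had arms at 503 and 500 normalised counts at stage 14 and at 416 and 48.7 at stage 17, a stage difference of 3.09 (SE 0.51, adjusted p = 1.76e-06 by the normal test). The receptor notch2.S had arms at 111 and 934 at stage 14 and at 543 and 787 at stage 17, a difference of 2.53 (SE 0.53, adjusted p = 6.56e-04 by the normal test). In hes1.L the denominator arm differed most between stages and in notch2.S the numerator arm. Their homeologs hes1.S and notch2.L had 0.70 (95% interval -0.39 to 1.79) and 0.81 (95% interval -0.38 to 1.99) and did not pass. In the BMP and nodal list 0 of 25 genes passed by the normal test, 2 positive and 0 negative ones had an unadjusted p-value under 0.05, and the median was 0.53. These counts are near the 1.6% and 8.79% of all members. The list does not hold every gene of these pathways. Outside it, admp.L, tdgf1.3.L, gdf10.L and cer1.S were called, with fitted stage differences of 5.61, 5.41, 2.14 and 3.19. These 4 genes were chosen after their values were seen.

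The called neural crest specifiers all had the second form. Each was called negative at stage 14, and sox10.S alone among them was still called so at stage 17. Of 23 members, 6 had a more positive change at stage 17, against 1.37% of all members. A more negative one was seen in 0, near the 0.224% of all members. Unadjusted, 14 and 0 of the 23 passed the normal test. The median difference of the list was 1.91. Past the threshold of the authors' deposited tables, 18 were negative at stage 14 and 6 at stage 17. The SoxE factor sox9, which promotes crest formation and later cartilage, was called in both copies. For sox9.S the numerator arm was at 989 and 4393 normalised counts and the denominator arm at 8284 and 6790, so that the arms differed 8.38-fold at stage 14 and 1.55-fold at stage 17. The stage difference was 2.44 (SE 0.54, adjusted p = 0.00179 by the normal test). For sox9.L the levels were 173 and 1052, then 1416 and 1333, with a difference of 2.69 (SE 0.58, adjusted p = 0.00104 by the normal test).

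The SoxE factor sox10, a regulator of migrating crest, was at the floor in the numerator arm at stage 14 in its .S copy. There the denominator arm was at 222 normalised counts, at least 74-fold higher, and at stage 17 the arms were at 3778 and 9864, a fold of 2.61. The fitted stage difference of sox10.S was 5.93 (SE 1.30, adjusted p = 0.00144 by the normal test), and with that arm at 3 it was 4.83. For sox10.L the arms were at 4.17 and 133, then 2967 and 10870, and the difference of 3.12 (95% interval 0.74 to 5.50) did not pass (adjusted p = 0.290, normal test). For snai2.L, an epithelial-to-mesenchymal regulator chosen after its values were seen, the numerator arm was at 1024 and 8124 and the denominator arm at 9108 and 15366. In both copies of sox10 and in snai2.L both arms were higher at stage 17 than at stage 14. A positive stage difference by definition means the larger factor in the numerator arm.

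Of 24 migration and adhesion genes, 2 were more positive and 0 more negative (5 and 2 unadjusted, normal test), with a median of 0.62. Among all members 1.37% were more positive and 0.224% more negative, and the count of 0 is near the latter. Both called genes were receptors. The fibronectin receptor subunit itga5.L had arms at 935 and 4084 normalised counts at stage 14 and at 2879 and 3345 at stage 17, a stage difference of 1.91 (SE 0.48, adjusted p = 0.00992 by the normal test). The semaphorin co-receptor nrp1.L had arms at 58.6 and 562, then 2203 and 1861, a difference of 3.50 (SE 0.98, adjusted p = 0.0307 by the normal test). The homeolog itga5.S had 1.79 with a 95% interval from 0.70 to 2.88 and did not pass (adjusted p = 0.0782, normal test).

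Markers of the surface ectoderm were present beside the crest genes. The summed epidermal level was 3.32-fold higher in the denominator arm than in the numerator arm at stage 14 and 2.17-fold at stage 17, and that of the crest specifiers 2.86-fold and 1.70-fold. The like folds were 3.54 and 3.48 for the 17 ionocyte genes and 3.54 and 2.54 for the 26 multiciliated-cell genes. Of the 38 epidermal members, 20 were negative past the threshold of the authors' deposited table at stage 14 and 14 at stage 17, and the median stage difference was 1.22. Only tp63.L among them passed the normal test, which is near the 1.6% of all members. At an unadjusted p-value under 0.05, 14 genes were more positive and 0 more negative, against 8.79% of all members in either direction. The lowest mean level of an epidermal gene was 3.97 normalised counts at stage 14 and 2.97 at stage 17. The part of these cells in the stage differences was not tested.

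For tp63.L, a regulator of basal epidermal cells, the numerator arm was at the floor at stage 14 with the denominator arm at 78.9, at least 26.3-fold higher. At stage 17 the arms were at 419 and 663 normalised counts. The fitted stage difference was 8.04 (SE 1.64, adjusted p = 4.20e-04 by the normal test), and with the floor at 3 it was 4.06. The homeolog tp63.S had 1.74 with a 95% interval from -1.70 to 5.18. In the multiciliated list spag6.L, a protein of the ciliary axoneme, was the single called gene of 23, with 4 positive and 0 negative ones unadjusted by the normal test. Its numerator arm was at the floor at stage 14, at least 43.2-fold below a denominator arm at 130, and the arms stood at 56.6 and 177 at stage 17. Of the 17 ionocyte members 0 passed by the normal test, with 3 positive and 0 negative unadjusted. The called counts of the multiciliated and ionocyte lists are near the 1.6% of all members. The multiciliated list does not hold every ciliary gene. Outside it, odf3.L, odf3.S, dnai7.L and tcte1.L were called, with fitted stage differences of 5.81, 4.73, 7.04 and 6.62. These 4 genes were chosen after their values were seen.

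In 10 called genes the arms differed past the authors' threshold at both stages with opposite signs. Of these, 7 went from negative to positive: msx1.S, msx2.L and fgfr4.L, described above, prdm13.S, rassf10.S, rasgef1b.L and ptgs2.S. For ptgs2.S, a prostaglandin synthase, the arms were at 6037 and 11556 normalised counts at stage 14 and at 3012 and 1069 at stage 17, a stage difference of 2.43 (SE 0.43, adjusted p = 1.81e-05 by the normal test). For rassf10.S, a Ras-association domain protein, they were at 293 and 828, then 596 and 105, a difference of 4.00 (SE 0.69, adjusted p = 7.38e-06 by the normal test). For rasgef1b.L, a guanine nucleotide exchange factor, they were at 464 and 948, then 347 and 60.1, a difference of 3.56 (SE 0.59, adjusted p = 2.07e-06 by the normal test).

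The neural subtype regulator prdm13.S had an arm at the floor at each stage. At stage 14 the denominator arm was at 39.9, at least 13.3-fold above the numerator arm, and at stage 17 the numerator arm was at 135, at least 45.2-fold above the denominator arm. Its fitted stage difference was 14.91 (SE 2.21, adjusted p = 5.74e-08 by the normal test), and with both arms at 3 it was 9.23. Of the homeologs of these genes that were members, rasgef1b.S had the opposite sign, at -3.40 with a 95% interval from -6.79 to -0.02, and rassf10.L had 1.53 with an interval from 0.22 to 2.83. Neither passed after adjustment.

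The other 3 genes went from positive to negative. For the anion transporter slc26a9.S the arms were at 336 and 36.3 normalised counts at stage 14 and at 41.1 and 211 at stage 17. The order of its arms was exchanged, with a 9.24-fold excess of the numerator arm and then a 5.13-fold excess of the denominator arm. Its stage difference of -5.57 (SE 0.91, adjusted p = 1.18e-06 by the normal test) had the lowest p-value among the 34 more negative genes. For ntn1.L, the guidance cue netrin, they were at 205 and 45.3, then 128 and 689, a difference of -4.60 (SE 0.84, adjusted p = 2.60e-05 by the normal test). For the ubiquitin ligase gene hectd4.L they were at 167 and 30.5, then 208 and 630, a difference of -4.05 (SE 0.91, adjusted p = 0.00206 by the normal test). In ntn1.L and hectd4.L the denominator arm differed most between stages, and in slc26a9.S both arms did. The homeolog hectd4.S was at -1.03 with a 95% interval from -3.86 to 1.80.

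**Figure D4:**
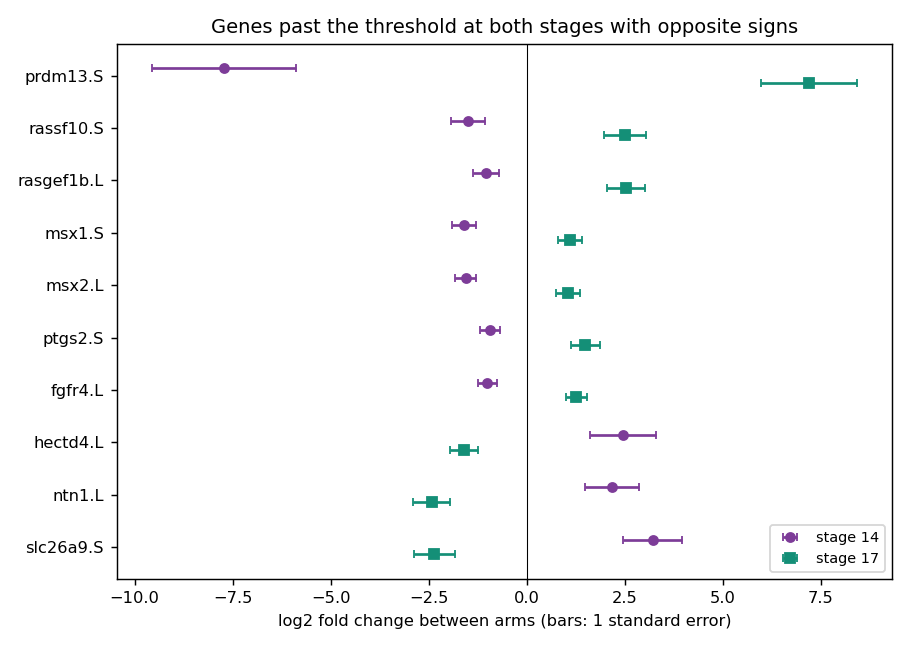
The log2 fold change between arms is shown for the 10 genes past the authors' threshold at both stages with opposite signs, circles for stage 14 and squares for stage 17, with bars of 1 SE from the authors' deposited tables. The 7 upper genes go from negative to positive and the 3 lower ones from positive to negative; the sizes of prdm13.S rest on arms at the floor.

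The 34 genes with a more negative change comprised 15 that were positive past the threshold at stage 14 and did not pass at stage 17, 11 negative at stage 17 only, the 3 above and 5 past at neither stage. Of the 34, 2 had no authors' p-value at a stage, which was counted as not passing. In the 27 gene lists, chosen with earlier results of these data known, 66 of 660 members (10%) were more positive, against 1.37% of all members. More negative were 0, which is near the 0.224% of all members. The lists were not matched to all members for level, and the share of 10% is a description only. The median shift of the 34 more negative genes between stages was -1.001 in the numerator arm and 2.01 in the denominator arm. For the calpain inhibitor cast.L the arms were at 663 and 310 normalised counts at stage 14 and at 195 and 1066 at stage 17, with a stage difference of -3.55 (SE 0.74, adjusted p = 6.21e-04 by the normal test). For the retinoblastoma relative rbl2.L they were at 240 and 77.04, then 44.3 and 259, with -4.18 (SE 1.02, adjusted p = 0.00709 by the normal test). In both the arms exchanged their order, and only the stage 17 change passed the authors' threshold.

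For the membrane ubiquitin ligase marchf8.S the arms were at 365 and 33.9 normalised counts, then 75.9 and 158, a stage difference of -4.48 (SE 1.001, adjusted p = 0.00194 by the normal test). Its homeolog marchf8.L went the same way, by -2.80 with a 95% interval from -4.57 to -1.04 (adjusted p = 0.0997, normal test). The subunit ND4 of respiratory complex I, encoded in the mitochondrial genome, stood at 28875 and 5754 at stage 14 and at 22339 and 20174 at stage 17. Its arms differed 5.02-fold and then 1.11-fold, and the stage difference was -2.18 (SE 0.51, adjusted p = 0.00364 by the normal test). The resistin-family gene retn.1.S had no p-value at stage 17 in the authors' deposited table. Its numerator arm was at the floor there, at least 12.7-fold below a denominator arm at 38.1. The fitted stage difference of retn.1.S was -21.61 (SE 4.85, adjusted p = 0.00206 by the normal test), and with the floor at 3 it was -3.32. The p-value belongs to the fitted value and not to -3.32, which is smaller in size than that SE.

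The gene with the lowest p-value of all was plekhg4.S. Its arms were at 2022 and 2474 normalised counts at stage 14 and at 1033 and 37.4 at stage 17. The fold between arms was 1.22 at stage 14, with the denominator arm higher, and 27.7 at stage 17, with the numerator arm higher. The stage difference was 5.08 (SE 0.61, adjusted p = 2.07e-12 by the normal test). The homeolog plekhg4.L, at 3586 and 1966, then 1500 and 154, passed as well, with 2.41 (SE 0.51, adjusted p = 6.84e-04 by the normal test).

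Homeologs gave a second look at each gene, with the limit that reads of near-identical copies may be divided between them. Both copies were members for 4699 genes. Over these pairs the stage differences of the copies had a Spearman correlation of 0.334, as a description, and 63.3% had the same sign. In 27 pairs both copies passed, and in all 27 both were more positive at stage 17. No more negative gene thus had a second called copy. As 208 of all 242 called genes were more positive, a shared sign is common among them. Both copies were measured in the same libraries and are not independent. In 114 pairs 1 copy passed. The uncalled copy had the same sign in 105 of these, and in 47 it also had an unadjusted p-value under 0.05 by the normal test with the same sign, against 1 with the opposite sign. A further 74 called genes had no second copy among the members. The 6 pairs with the lowest p-values were meis3, sox3, pou5f3.1, plekhg4, sox9 and fgf3.

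**Figure D5:**
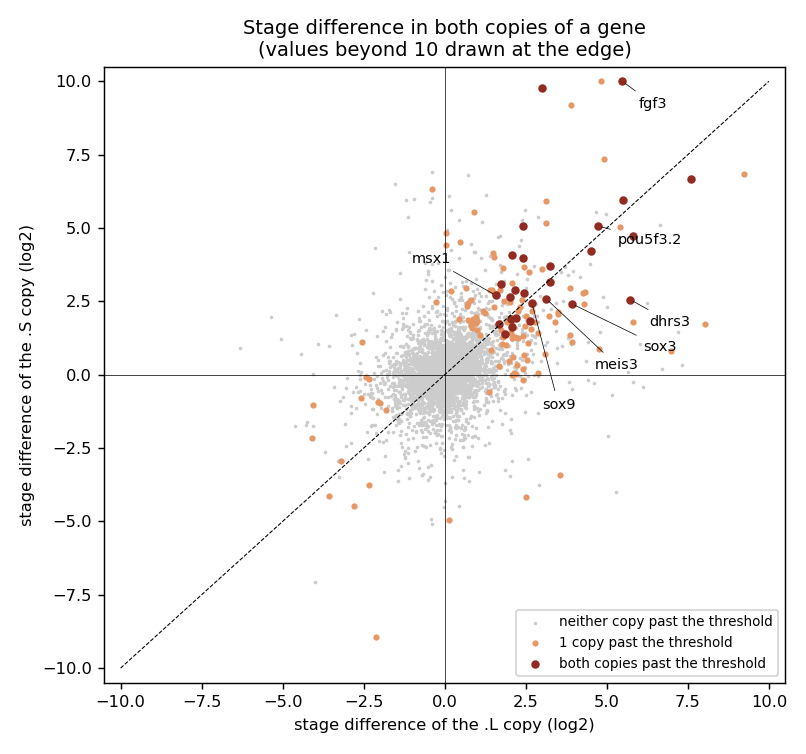
Each point is 1 of 4699 homeolog pairs, with the stage difference in log2 units of the long-chromosome copy on the x axis and of the short-chromosome copy on the y axis, as fitted, and values beyond 10 drawn at the edge. The 27 pairs with both copies past the threshold all lie in the upper right quadrant.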

How the data were processed

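RNA sequencing of 12 Xenopus laevis neural crest samples was analysed through the authors' own comparison of the morpholino arms at each stage. Libraries were unstranded, per the labels, so reads of overlapping and antisense genes are less certain. STAR 2.7.3a and DESeq2 are named in the submitters' processing notes. Their order, the genome build and the annotation are not given in the sources used here.

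Per the file headers, the authors deposited for each gene a log2 fold change, its error in log2 units, a test score, p-values before and after adjustment, and a mean normalised count, a signal scaled between libraries. There were 18206 rows for stage 14 and 18556 for stage 17. Values per sample and depth per library were not analysed here, so the planned test uses the authors' standard errors. At stage 17 the adjustment behind the authors' deposited p-values covered 22197 genes, more than the table holds.

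The stage difference was scaled by its error, the root of the sum of both squared standard errors, and tested two-sided against the normal distribution. The Benjamini-Hochberg adjustment ran over all 17510 genes in both tables. Counts refer to genes with a mean of at least 10 normalised counts in each. P-values measure the spread between samples, which the labels do not say came from separate clutches. The procedure was run on simulated fold changes drawn from normal distributions with the authors' standard errors. Such data cannot check the choice between the normal and the t reference. Python 3.11.15 with pandas 2.3.3 and scipy 1.17.1 was used. Symbols of 15150 members were found in RefSeq (Xenopus_laevis_v10.1).

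The members and the gene lists were chosen with earlier results of these data known. Genes named in the text were the 8 with the lowest p-value in each direction, those with opposite signs past the threshold at both stages, up to 3 called genes of each list, the 6 best homeolog pairs, and the homeologs of all of these. Alternatives were other thresholds, minimum means, adjustments, reference distributions, centring, rescaled errors, genes at the floor left out and homeologs averaged. No sequences of the microRNA, morpholinos or genes were used here.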

Additional observations from a re-analysis of the deposited data

Results flagged for a closer look

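Each gene named by rule whose change between arms differed between stages past an adjusted p-value of 0.05, by the normal test with Benjamini-Hochberg adjustment, is listed here with its stage difference in log2 units, stage 17 minus stage 14. There are 56 such genes, and the differences of prdm13.S, fgf3.S, tp63.L, sox10.S, spag6.L, phgdh.L and retn.1.S use arms set to the floor of 3 normalised counts. For those with floored arms, the adjusted p-value belongs to the fitted difference.

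Among immature neural and pluripotency genes the stage differences were 3.92 for sox3.L, 2.42 for sox3.S, 4.24 for sox2.L, 2.78 for pou5f3.1.S, 2.45 for pou5f3.1.L, 3.99 for ventx2.2.S, 2.43 for ventx2.2.L, 4.06 for ventx2.1.S and 2.08 for ventx2.1.L. Border genes gave stage differences of 2.62 for msx2.L, 1.83 for msx2.S, 2.705 for msx1.S, 1.58 for msx1.L and 2.90 for zic2.S.

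Posterior neural and Hox genes gave stage differences of 3.14 for meis3.L, 2.58 for meis3.S, 2.95 for cyp26a1.S, 4.22 for hoxd1.S, 4.50 for hoxd1.L, 2.78 for hoxb1.S and 5.38 for hoxb4.S. Retinoid reductase copies stood at 5.72 for dhrs3.L and 2.56 for dhrs3.S, and the other pair at 5.08 for plekhg4.S and 2.41 for plekhg4.L. Signalling genes gave stage differences of 2.27 for fgfr4.L, 6.22 for fgf3.S, 5.48 for fgf3.L, 2.89 for fzd10.S, 2.52 for notum.S, 1.87 for axin2.L, 1.39 for axin2.S, 3.09 for hes1.L and 2.53 for notch2.S.

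Crest genes gave stage differences of 2.69 for sox9.L, 2.44 for sox9.S, 4.83 for sox10.S, 1.91 for itga5.L and 3.50 for nrp1.L, and surface ectoderm genes 4.06 for tp63.L and 3.79 for spag6.L. The remaining more positive genes were prdm13.S at 9.23, rassf10.S at 4.00, rasgef1b.L at 3.56, ptgs2.S at 2.43, ccne2.S at 1.35, phgdh.L at 1.90 and slc3a2.S at 2.0. The more negative genes were slc26a9.S at -5.57, ntn1.L at -4.60, cast.L at -3.55, marchf8.S at -4.48, retn.1.S at -3.32, hectd4.L at -4.05, rbl2.L at -4.18 and ND4 at -2.18.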

How the results depend on the processing

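Of 242 genes with a stage difference (208 more positive and 34 more negative), an adjusted p threshold of 0.01 left 126 (115 and 11). A threshold of 0.1 gave 323 genes, 54 of them more negative, and a minimum mean of 100 in each table left 184 genes, 21 of them more negative. With a t reference of 8 degrees of freedom in place of the normal, 0 genes passed, 0 more positive and 0 more negative. That reference assumes no sharing of spread between genes. Centring the differences at the median of all genes tested gave 172 more positive and 42 more negative genes, a share of 80.4% more positive against 86.0%. The other alternatives gave counts within 1.5 times these values, between 198 genes with floored genes left out and 250 with homeologs averaged. Leaving out the genes without an authors' p-value, chosen after seeing the data, gave 237. Of the 56 named genes past the threshold, 5 lost it when centred (axin2.S, ccne2.S, msx2.S, phgdh.L and slc3a2.S), 2 with standard errors rescaled (phgdh.L and slc3a2.S) and all 56 with the t reference, and none reversed under the alternatives run for single genes. No paired analysis was possible because the sample numbers are not shared between groups and the tables hold no values per sample. For the same reason no sample could be left out in turn.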

Other observations

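Genes encoded in the mitochondrial genome form a list added after its values were seen. Of 12 members, 4 had a more negative change at stage 17 and 0 a more positive one (9 and 0 unadjusted, normal test). Among all members 0.224% were more negative and 1.37% more positive. All 12 stage differences of the list lay below 0, around a median of -1.66. The median log2 fold change was 1.79 at the earlier stage and 0.18 at the later, and 11 and then 0 genes were positive and past the threshold, by the authors' deposited tables. Beside ND4, the complex I subunits ND5 and ND3 passed with stage differences of -1.74 (SE 0.42, adjusted p = 0.00709) and -1.77 (SE 0.46, adjusted p = 0.0142), and the complex III subunit CYTB with -1.73 (SE 0.50, adjusted p = 0.0448), all by the normal test. For CYTB the arms stood at 80173 and 20993 normalised counts at stage 14 and at 56261 and 48805 at stage 17. The mitochondrially encoded genes made up 7.08% of the numerator arm and 2.64% of the denominator arm at stage 14, and 5.198% and 4.01% at stage 17. Whether the difference in this share bears on other stage differences was not tested.

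Of 40 cell cycle members 36 lay above 0, with a median of 0.47 and a lowest value of -3.48, and 1 passed in the positive direction and 0 in the negative (6 and 0 unadjusted, normal test). The called gene was ccne2.S, a cyclin of the G1 to S transition, with arms at 1263 and 1453 normalised counts at stage 14 and at 962 and 433 at stage 17. Its stage difference was 1.35 (SE 0.39, adjusted p = 0.0424 by the normal test), and the homeolog ccne2.L had 1.08 with a 95% interval from 0.19 to 1.98. Cytosolic ribosomal protein genes had 24 of 132 members above 0 and a median of -0.24, and 0 passed by the normal test (0 positive and 3 negative unadjusted). Among all members 56.6% lay above 0, 1.6% passed and 8.79% had an unadjusted p-value under 0.05.

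In the serine and one-carbon list 1 of 13 genes passed (2 positive and 3 negative unadjusted, normal test), with a median difference of -0.46. That gene was phgdh.L, for the first enzyme of serine synthesis, with arms at 217 and 22.04 normalised counts at stage 14. At stage 17 the numerator arm stood at 111, at least 36.9-fold above a denominator arm at the floor. In the integrated stress response list 1 of 24 genes passed (1 and 1 unadjusted, normal test), with a median of -0.71. It was slc3a2.S, the heavy chain of amino acid transporters, with arms at 132 and 1279, then 619 and 1499, and a stage difference of 2.0 (SE 0.59, adjusted p = 0.0489 by the normal test). At stage 14 the authors' deposited table had 10 positive genes of that list past the threshold and 1 negative, slc3a2.S. The shares of all members there were 3.35% and 6.25%. Of all members, 1.6% had a called stage difference and 8.79% passed unadjusted. In lists of this size a count of 1 called gene is near the 1.6%.

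Among all members 1.6% passed the normal test and 8.79% had an unadjusted p-value under 0.05. Counts of 0 or 1 called gene in the lists that follow are near the first share. The p53 response list had 0 of 22 genes past the normal test (1 positive and 2 negative unadjusted) and a median of -0.47. The preplacodal list had 0 of 15 (2 and 0 unadjusted) and a median of 0.39. The neuronal differentiation list had 1 of 22, prdm13.S (2 and 1 unadjusted), and a median of 0.26. The notochord and organizer list had 0 of 7 (0 and 0 unadjusted) and a median of -1.90, its log2 fold changes having medians of 3.28 and 1.34 at the stages by the authors' deposited tables. The cement gland list had 0 of 4 (0 and 0 unadjusted) and a median of 0.77. Muscle and endoderm each had 1 member, which did not pass, and no blood and myeloid gene was a member.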
